A study of Homo sapiens with 12 samples.

Results

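The genes described here were 10 immediate early genes: EGR1 (ENSG00000120738_at), EGR2 (ENSG00000122877_at), EGR3 (ENSG00000179388_at), FOS (ENSG00000170345_at), FOSB (ENSG00000125740_at), JUN (ENSG00000177606_at), JUNB (ENSG00000171223_at), JUND (ENSG00000130522_at), IER2 (ENSG00000160888_at) and ATF3 (ENSG00000162772_at). They were taken by these row IDs, each an Ensembl gene ID, from a table of 21996 genes, and all 10 were present. Symbols are those supplied with this list of IDs, since the table pairs no ID with a symbol. The group was selected on the rise of EGR1, the largest of any gene in log2 intensity when GM-CSF was withdrawn, and the others are immediate early genes often studied with it. All values of EGR1 are therefore given as a description, without a test. The withdrawal changes in empty vector cells, where that rise was widest, are given in the same way for all 10 genes, and the tests below concern the 9 genes other than EGR1.

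Levels were measured in TF-1, a human erythroleukaemia cell line that needs the cytokine GM-CSF to grow. All cells carried the retroviral vector pMSCV-puro, either empty or expressing GNB1 K89E, a mutant of a G protein beta subunit. Both lines were sampled after 12 hours without GM-CSF and while GM-CSF was maintained. This gave 4 groups of 3 arrays, labelled as biological triplicates of total RNA. The labels describe stably transfected cells and name no clone. No line carrying unmutated GNB1 in the vector was among the samples, so the mutant cannot be told apart from any other difference between the lines. Intensities on the 12 arrays ran from 9.31 to 17477, with array medians of 172.6 to 179.9, and the number of arrays limits the precision. Log2 levels of arrays correlated at 0.996 to 0.999 within groups and at 0.993 to 0.997 between groups. The labels name no batch, and a batch that coincided with a group could not be separated from it. No detection calls were used here, so it is not known which of the dimmer genes lay above background. Among the genes described here, EGR2 and ATF3 had the lowest levels. EGR3 in all groups, and FOS with GM-CSF in both lines, also had mean intensities under the lowest array median. The marker genes of TF-1 and the level of GNB1 itself were not analysed here, because no symbol is paired with their IDs.

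Immediate early genes are switched on within minutes of a signal such as a growth factor, without new protein synthesis, and are usually silenced again soon after. The ERK kinase cascade, which GM-CSF and G protein signalling can both engage, acts on many of them through ternary complex factors and SRF, the serum response factor, which binds the CArG box, and through CREB-family factors, which bind the cyclic AMP response element. EGR proteins are zinc finger factors that bind GC-rich DNA. FOS and JUN proteins pair through leucine zippers to form the transcription factor AP-1. IER2 is a nuclear immediate early protein, and ATF3 is a leucine zipper factor best known for its induction by stress.

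The sequences before the start sites of EGR1, FOS, EGR2 and JUND are shown because EGR1 responded most widely to withdrawal of GM-CSF, FOS rose in K89E cells, EGR2, which passed no test, holds the same kind of CArG box as EGR1, and JUND differed between the lines. Each covers 250 bases up to the base before the annotated start, read 5′ to 3′ on the strand of the gene, from RefSeq promoters of build GRCh38.p14. They span chr5:138465229-138465478 on the plus strand for EGR1, chr14:75278578-75278827 on the plus strand for FOS, chr10:62816367-62816616 on the minus strand for the start of EGR2 that lies farthest along the gene, and chr19:18281623-18281872 on the minus strand for JUND. Capitals mark matches, on either strand, to the CArG box, to the full cyclic AMP response element TGACGTCA, to the part of it TGACG, or to the EGR motif GCGNGGGCG.
EGR1: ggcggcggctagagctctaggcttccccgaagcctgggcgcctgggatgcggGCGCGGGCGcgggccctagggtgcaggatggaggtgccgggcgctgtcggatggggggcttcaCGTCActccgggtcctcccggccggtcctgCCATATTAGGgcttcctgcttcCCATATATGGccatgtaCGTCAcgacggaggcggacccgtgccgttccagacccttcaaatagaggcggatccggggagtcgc
FOS: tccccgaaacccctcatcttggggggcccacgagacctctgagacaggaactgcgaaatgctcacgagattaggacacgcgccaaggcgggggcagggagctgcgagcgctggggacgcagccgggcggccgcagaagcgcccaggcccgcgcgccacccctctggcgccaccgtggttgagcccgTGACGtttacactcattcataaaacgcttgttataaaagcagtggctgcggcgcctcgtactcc
EGR2: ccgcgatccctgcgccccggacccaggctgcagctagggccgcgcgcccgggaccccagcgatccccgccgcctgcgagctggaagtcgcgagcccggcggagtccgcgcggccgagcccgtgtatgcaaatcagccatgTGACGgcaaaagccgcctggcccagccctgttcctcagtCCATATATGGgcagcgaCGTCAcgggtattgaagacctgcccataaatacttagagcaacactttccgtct
JUND: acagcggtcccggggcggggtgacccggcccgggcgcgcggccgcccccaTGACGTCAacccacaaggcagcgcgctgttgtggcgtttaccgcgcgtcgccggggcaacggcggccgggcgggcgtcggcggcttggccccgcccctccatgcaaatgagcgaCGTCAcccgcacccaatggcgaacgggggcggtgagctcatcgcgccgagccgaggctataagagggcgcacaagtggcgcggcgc

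The EGR1 window held 2 CArG boxes, CCATATTAGG at 105 to 96 bases and CCATATATGG at 83 to 74 bases before its start. EGR2 held CCATATATGG at 71 to 62 bases before its start. No CArG box was found in the windows of FOS, FOSB, JUN, JUNB, JUND, IER2 and ATF3, and 1.16% of all 35116 RefSeq windows of the same length held one. The 9 genes whose windows were searched had 12 windows, because EGR2 has 3 annotated starts and ATF3 has 2. The sequence TGACG, which overlaps the full element wherever that occurs, was in 8 of the 12 windows and in 21.2% of all windows. The full element was in the JUND window alone, at 200 to 193 bases before the start, and in 1.65% of all windows. The EGR motif was in the EGR1 window alone, at 198 to 190 bases before the start, and in 8.41% of all windows. The AP-1 motif TGANTCA was in 0 of the 12 windows and in 6.57% of all. No other sequence was searched for as an AP-1 site, so these windows may hold AP-1 sites of another form. Sequence outside these windows of 250 bases was not searched, so a gene without a match here may hold one farther from its start. These matches are letters in a window and say nothing about what was bound in these cells.

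**Figure D1:**
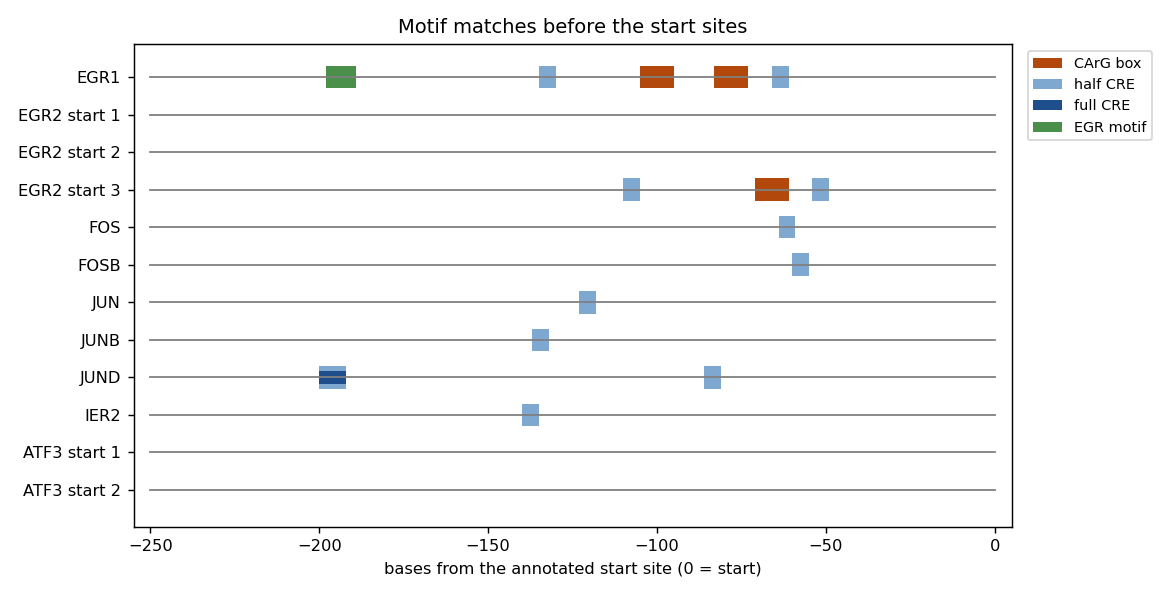
Each line is 1 window of 250 bases before an annotated start, the x axis gives the distance in bases from that start, and coloured blocks are motif matches on either strand (light blue TGACG, dark blue TGACGTCA, orange CArG box, green EGR motif). The 2 CArG boxes in the EGR1 window lie within 105 bases of its start, and EGR2 has 1 at the start farthest along the gene.

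EGR1 was the member with the widest response to withdrawal of GM-CSF in both lines. In K89E cells its intensity was 444.9, 439.7 and 468.6 with GM-CSF and 1523, 1491 and 1495 after 12 hours without it. All withdrawn arrays lay far above all GM-CSF arrays. The log2 level went from 8.82 ± 0.05 (SD, n = 3) to 10.55 ± 0.02 (SD, n = 3), a change of 1.74, or 3.33-fold. The next gene of the 21996 had a change of 1.21 in these cells. In empty vector cells the intensity of EGR1 went from 391.2, 391.2 and 380.2 to 1604, 1577 and 1728. The log2 change there was 2.08, with 1.33 for the next gene.

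The levels of EGR1 fell into 4 separate ranges. The lowest was that of empty vector cells with GM-CSF, at log2 levels of 8.57 to 8.61. K89E cells with GM-CSF followed at 8.78 to 8.87, then K89E cells after withdrawal at 10.54 to 10.57, and empty vector cells after withdrawal at 10.62 to 10.75. No range overlapped another. K89E cells were thus higher by 0.22 with GM-CSF and lower by a log2 difference of -0.12 after withdrawal, and the withdrawal response in K89E cells minus that in empty vector cells was -0.34. These differences use arrays in which EGR1 was picked for a low level with GM-CSF and a high level without it. Between the lines, the arrays of 28.7% of all genes did not overlap with GM-CSF, and those of 25.4% after withdrawal.

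EGR2 and EGR3 did not pass the test on withdrawal in K89E cells. EGR2 had nearly the same level in all groups, with group means of 6.29 to 6.32 on the log2 scale. Single arrays ran from 6.17 to 6.45, both of them empty vector arrays after withdrawal. Group mean intensities of EGR2 were 78.3 to 80.1, under the lowest array median of 172.6. EGR2 was among the genes left out when the dimmest were removed. Whether it lay above background was not tested, so its flat level cannot show that an expressed gene failed to respond. The EGR2 arrays overlapped in every comparison, and the log2 change on withdrawal in K89E cells was 0.02 (95% interval -0.15 to 0.18, limma adjusted p = 0.93). EGR3 had log2 levels of 6.87, 6.62 and 6.64 in K89E cells with GM-CSF and 7.07, 7.04 and 6.80 after withdrawal. One array of each group stood apart from its other 2, and the groups overlapped. Group mean intensities of EGR3 were 94.7 to 125.9, also under the lowest array median, and whether it lay above background was not tested. The log2 change of EGR3 was 0.26 (95% interval 0.06 to 0.46, limma adjusted p = 0.074), which did not pass the threshold of 0.05. Without K89E GM-CSF replicate 1 it was 0.34 (limma adjusted p = 0.030), and without K89E withdrawn replicate 3 it was 0.35 (limma adjusted p = 0.024). These were the only 2 of 21 alternative settings in which the EGR3 change passed. It was lowest without K89E withdrawn replicate 1, at 0.21 (limma adjusted p = 0.23). EGR3 levels in empty vector cells were 6.53, 6.55 and 6.61 with GM-CSF and 6.54, 6.73 and 6.80 after withdrawal, a log2 change of 0.13.

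**Figure D2:**
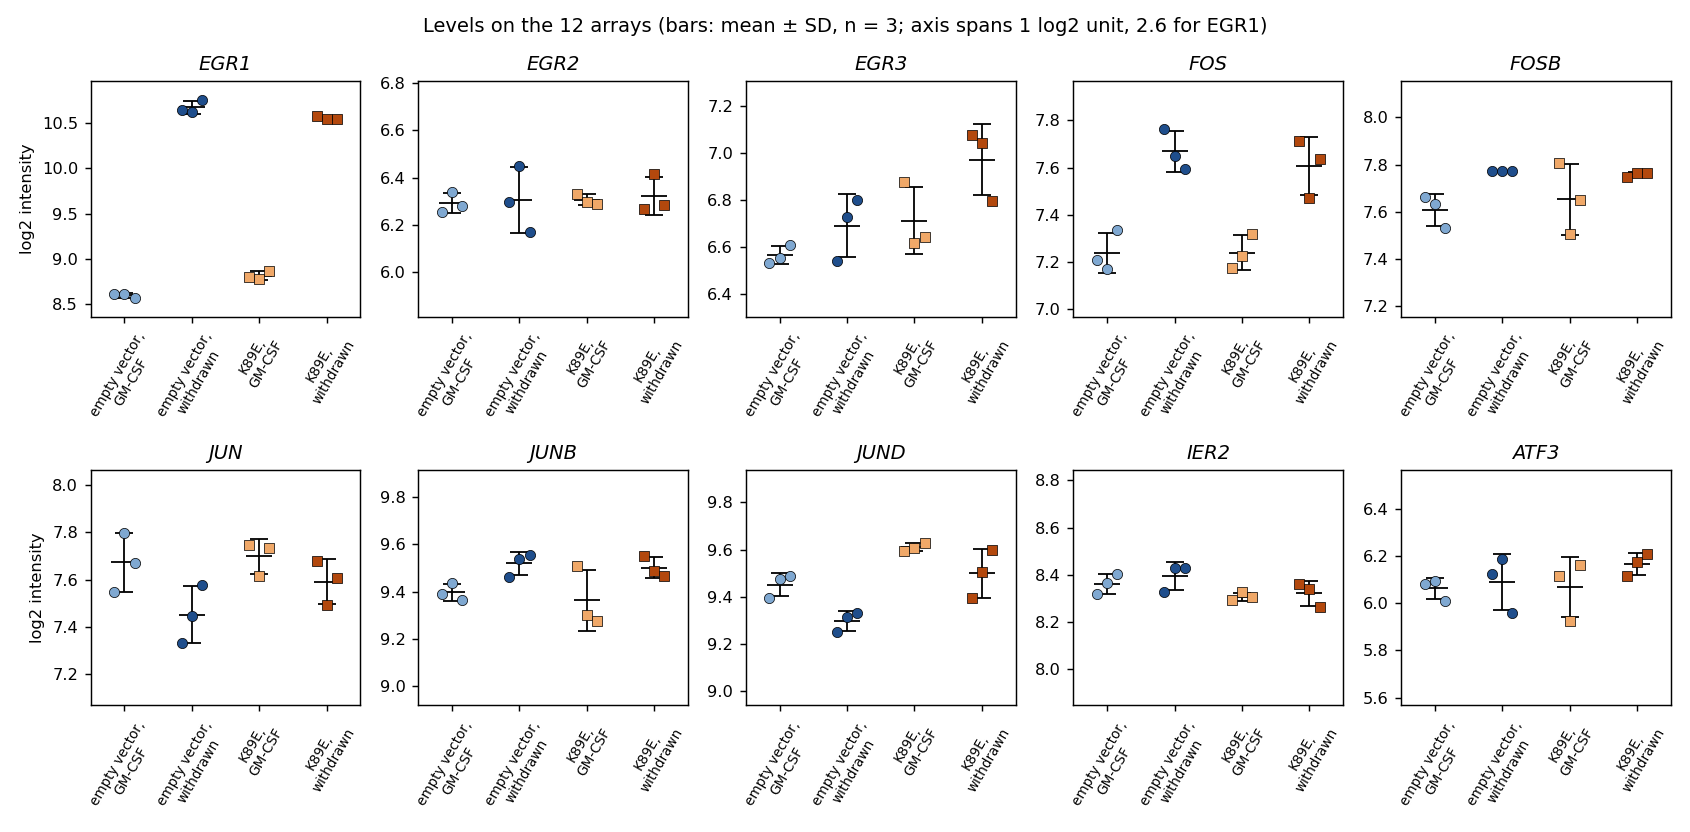
Log2 intensity of each gene (y axis) on the 12 arrays, by group (x axis), where points are arrays and bars give the mean ± SD of 3 arrays. The EGR1 axis spans a wider range than the others; EGR1 and FOS separate withdrawn from GM-CSF arrays in both lines, and the JUND arrays of K89E cells lie above those of empty vector cells under each condition.

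FOS, a partner of the JUN proteins in AP-1, rose on withdrawal in K89E cells. Its intensity was 144.5, 149.6 and 159.6 with GM-CSF and 209.5, 177.4 and 199.0 without it. The groups did not overlap. Its log2 level went from 7.24 ± 0.07 (SD, n = 3) to 7.61 ± 0.12 (SD, n = 3), a change of 0.37 (SE 0.07, limma adjusted p = 0.0031), or 1.29-fold. FOS intensities in empty vector cells were 147.9, 144.0 and 161.3 with GM-CSF and 217.5, 200.6 and 193.4 without it, a log2 change of 0.43. Mean intensities of FOS with GM-CSF were 151.1 in empty vector and 151.2 in K89E cells, under the lowest array median of 172.6. Whether FOS lay above background there was not tested. The change of FOS in K89E cells ranked 394 from the highest among all genes. The test passed in all 21 alternative settings, at changes of 0.31 to 0.43. Several settings, such as another prior variance or omission of an empty vector array, left the change at 0.37, so only its adjusted p could move.

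FOSB, which also pairs with JUN proteins, had intensities of 223.6, 181.6 and 200.9 in K89E cells with GM-CSF and 214.6, 217.6 and 217.3 after withdrawal. The withdrawn arrays lay close together inside the spread of the GM-CSF arrays. Its log2 change was 0.11 (95% interval -0.04 to 0.25, limma adjusted p = 0.34). In empty vector cells the 3 withdrawn arrays were again close, at 218.7, 218.6 and 219.0, above GM-CSF arrays of 202.5, 198.2 and 185.0.

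No JUN gene passed the test on withdrawal in K89E cells, and their changes did not all have 1 sign. JUNB had log2 levels of 9.51, 9.30 and 9.28 with GM-CSF and 9.55, 9.49 and 9.46 without it, a change of 0.14 (95% interval 0.02 to 0.26, limma adjusted p = 0.10). K89E GM-CSF replicate 1 lay among the withdrawn arrays, and without it the change of JUNB was 0.21 (limma adjusted p = 0.0049). The JUNB change also passed after quantile normalization, at 0.16 (limma adjusted p = 0.042), which made 2 of 21 settings in all. It was lowest without K89E GM-CSF replicate 3, at 0.10 (limma adjusted p = 0.35). K89E GM-CSF replicate 1 was also the highest of its group for EGR2, EGR3, FOSB and JUN. For FOS, JUND and IER2 it was the lowest of its group, and for EGR1 and ATF3 it lay between the others. The part of this array in these results beyond the values given was not tested.

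JUN, the founding partner of FOS in AP-1, had log2 levels of 7.75, 7.61 and 7.74 with GM-CSF and 7.68, 7.49 and 7.61 without it in K89E cells, which overlapped. The change was -0.11 (95% interval -0.28 to 0.06, limma adjusted p = 0.42). JUN in empty vector cells had a log2 change of -0.22, between arrays at 7.55, 7.80 and 7.67 and arrays at 7.33, 7.45 and 7.58, which overlapped. JUND, a JUN protein that is made in most resting cells, had log2 levels of 9.60, 9.61 and 9.63 in K89E cells with GM-CSF and 9.39, 9.50 and 9.60 after withdrawal. The change was -0.11 (95% interval -0.21 to -0.01, limma adjusted p = 0.14). Without K89E withdrawn replicate 3, the array nearest to the GM-CSF levels, the change of JUND was -0.16 (limma adjusted p = 0.030), and without K89E withdrawn replicate 1 it was -0.06 (limma adjusted p = 0.47). The first of these was the only 1 of 21 settings in which it passed. The JUND groups of empty vector cells did not overlap, at 9.39, 9.47 and 9.49 with GM-CSF and 9.25, 9.31 and 9.33 without it, a log2 change of -0.15.

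IER2 and ATF3 did not pass the test on withdrawal in K89E cells. IER2 had log2 levels of 8.29, 8.32 and 8.31 with GM-CSF and 8.36, 8.34 and 8.26 without it, which overlapped. Its group means in both lines lay between 8.31 and 8.39, and its log2 change on withdrawal was 0.01 (95% interval -0.09 to 0.11, limma adjusted p = 0.89). ATF3 had log2 levels of 6.12, 5.93 and 6.16 with GM-CSF and 6.12, 6.17 and 6.21 without it, which overlapped as well. Its group means lay between 6.06 and 6.17, with a change of 0.10 (95% interval -0.07 to 0.27, limma adjusted p = 0.48). In empty vector cells their log2 changes were both 0.03, and the arrays of each overlapped. Group mean intensities of ATF3 were 66.9 to 71.8, under the lowest array median of 172.6. ATF3 was also left out when the dimmest genes were removed, and whether it lay above background was not tested.

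In all, 1 of the 9 genes other than EGR1, FOS, passed the test on withdrawal in K89E cells, where 17.9% of all 21996 genes did so. FOS was also the only 1 of the 9 whose arrays did not overlap between the groups, against 31.8% of all genes. The median log2 change of the 9 genes was 0.10, and 0.02 over all genes. With EGR1, which was picked for its rise, 8 of the 10 changes were positive, as were 55.7% of those of all genes. In empty vector cells the arrays of 5 of the 10 genes did not overlap, against 35.7% of all genes. Nothing is read from this last count, since the rise of EGR1 that selected the group was widest in that comparison. Levels after withdrawal were taken at 12 hours only, so an earlier change that had passed by then was not measured.

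**Figure D3:**
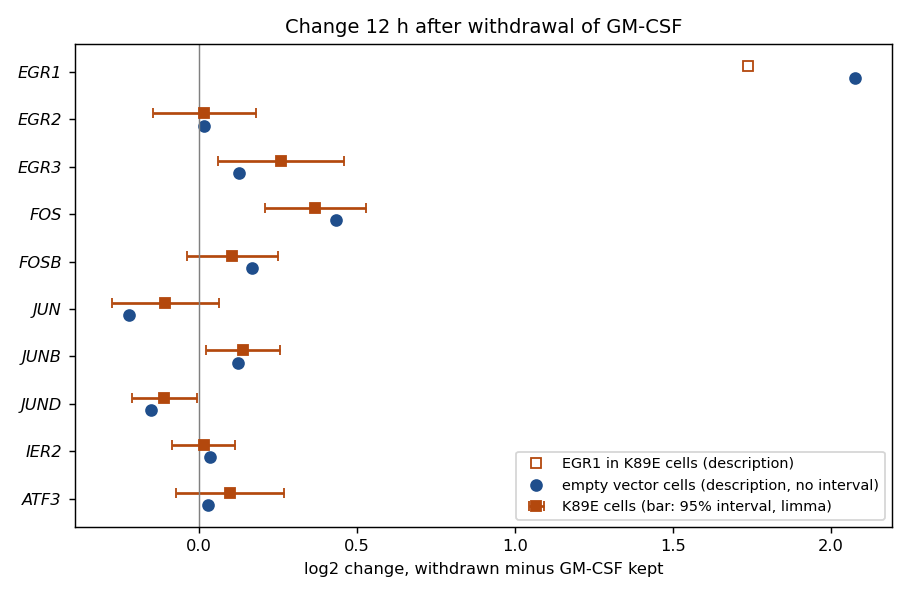
Log2 change on withdrawal of GM-CSF (x axis) for each gene (y axis), with filled squares and 95% intervals for K89E cells, and circles for empty vector cells and an open square for EGR1 without an interval. EGR1 lies at 1.74 in K89E cells and the other genes lay between -0.11 and 0.37.

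**Figure D4:**
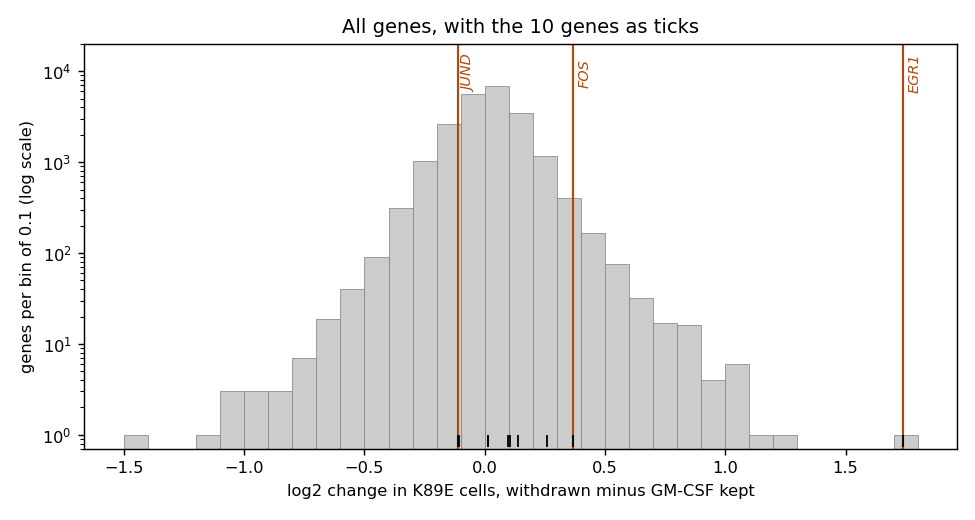
Number of genes per bin of 0.1 (y axis, log scale) by log2 change on withdrawal in K89E cells (x axis), over all 21996 genes. Ticks mark the 10 genes and lines mark EGR1, FOS and JUND; EGR1 at 1.74 lies alone at the right end, and FOS at 0.37 lies within the upper tail.

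For the 9 genes other than EGR1, no difference between the withdrawal responses of both lines was called by limma. The differences, K89E response minus empty vector response, ran from -0.07 for FOS to 0.13 for EGR3 on the log2 scale, and 0 of the 9 had an unadjusted p under 0.05. The 95% intervals reached from -0.29 for FOS to 0.42 for EGR3. Among all genes 0.0682% were called. The empty vector responses in these differences are those of the comparison in which the rise of EGR1 that selected the group was widest.

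After withdrawal of GM-CSF, JUND was higher in K89E than in empty vector cells. Its intensity was 608.8, 635.7 and 644.2 in empty vector and 672.4, 725.9 and 776.0 in K89E cells. All K89E arrays lay above all empty vector arrays. The log2 difference was 0.20 (SE 0.05, limma adjusted p = 0.013), or 1.15-fold. Without K89E withdrawn replicate 3, the highest of the 6 arrays, it was 0.15 (limma adjusted p = 0.055), and a fit on these 2 groups alone gave limma adjusted p = 0.054. The JUND difference passed in the other 19 of 21 settings. EGR3 had a log2 difference of 0.28 (95% interval 0.08 to 0.48, limma adjusted p = 0.067), with 1 K89E array, at 6.80, no higher than the top empty vector array, also at 6.80. Without K89E withdrawn replicate 3, which was that array, the EGR3 difference was 0.37 (limma adjusted p = 0.024). The EGR3 difference also passed without K89E GM-CSF replicate 1 (limma adjusted p = 0.049) and without the dimmest 33.3% of genes (limma adjusted p = 0.047), which made 3 of 21 settings. It was lowest without empty vector withdrawn replicate 1, at 0.21 (limma adjusted p = 0.21).

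The remaining genes gave log2 differences after withdrawal of -0.07 for IER2 to 0.14 for JUN, and none of them passed. FOS differed by -0.06 (95% interval -0.22 to 0.10, limma adjusted p = 0.67). In all, 1 of the 9 genes other than EGR1 was called here, against 12.5% of all genes. The arrays of 2 of the 9, JUND and FOSB, did not overlap between the lines, against 25.4% of all genes. For FOSB the log2 difference behind this was only -0.02, between arrays that were nearly equal within each group.

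With GM-CSF maintained, JUND was again above empty vector in all K89E arrays, with intensities of 672.6, 711.1 and 717.5 in empty vector and 773.8, 779.9 and 790.9 in K89E cells. The log2 difference was 0.16 (95% interval 0.06 to 0.26, limma adjusted p = 0.054), which narrowly missed the threshold. It passed with quantile normalization (limma adjusted p = 0.046), with array weights (0.020), without the dimmest 33.3% of genes (0.036) and in a fit on these 2 groups (0.021), as well as without K89E withdrawn replicate 1 (0.024) or replicate 3 (0.029). With the replicate block (0.021) these made 7 of 21 settings, and the highest adjusted p in the others was 0.21, at a difference of 0.13 without empty vector GM-CSF replicate 1. EGR3 did not overlap between the lines either, at 6.53, 6.55 and 6.61 in empty vector and 6.87, 6.62 and 6.64 in K89E cells, with a log2 difference of 0.15 (95% interval -0.05 to 0.35, limma adjusted p = 0.44). Of the 9 genes other than EGR1, 0 were called by limma and 1, JUND, had an unadjusted p under 0.05. Among all genes 9.61% were called. The arrays of 2 of the 9 did not overlap, against 28.7% of all genes. The other 7 had log2 differences from -0.05 for IER2 to 0.05 for FOSB.

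**Figure D5:**
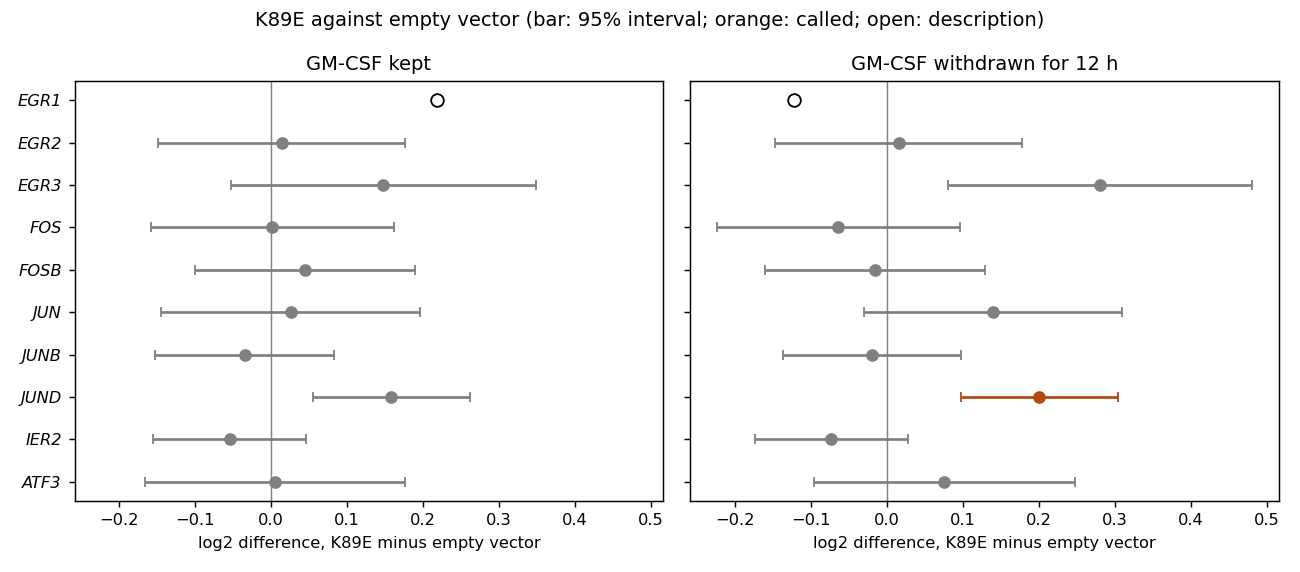
Log2 difference of K89E minus empty vector cells (x axis) for each gene (y axis), with GM-CSF kept on the left and withdrawn on the right. Points with bars are estimates with 95% intervals, orange marks the 1 called gene, and open circles are EGR1, shown without an interval; JUND lies at 0.16 and 0.20, and EGR1 at 0.22 and -0.12.

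The genes whose centred log2 levels over the 12 arrays lay nearest to those of EGR1 were not members of the group. Likeness was measured as the root mean square difference of log2 levels, each gene centred on its own mean. This measure counts the size of a change as well as its shape, and EGR1 was picked for a large rise. Distance from EGR1 therefore cannot show that a member lacked the shape of its response. The 2 nearest genes were ENSG00000166046, at 0.40, and ENSG00000033122, also at 0.40, which the files do not pair with symbols. The log2 level of ENSG00000166046 went from 5.84 ± 0.06 (SD, n = 3) to 7.04 ± 0.10 (SD, n = 3) in empty vector and from 6.04 ± 0.12 (SD, n = 3) to 7.13 ± 0.16 (SD, n = 3) in K89E cells. That of ENSG00000033122 went from 8.94 ± 0.10 (SD, n = 3) to 10.10 ± 0.07 (SD, n = 3) and from 9.04 ± 0.19 (SD, n = 3) to 10.22 ± 0.16 (SD, n = 3). The changes of both were smaller than those of EGR1 in each line, which follows from EGR1 having the largest rise of any gene. Among the 9 other members FOS was nearest to EGR1, at 0.76, and ranked 249 of all genes, while JUN was the farthest, at 1.04.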

How the data were processed

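The authors deposited a linear intensity for each Ensembl gene ID on each array, normalized with RMA per the submitters' processing notes. For the RMA version, array type, probe set definition, genome build and batch, the sources used here give nothing. Groups and replicate numbers came from the labels. Log2 intensities of all 21996 genes on the 12 arrays entered 1 linear model with a mean for each group in limma 3.58.1 (R 4.3.3), whose prior variance followed the level. Tests were 2-sided. Adjustment was by Benjamini-Hochberg across every gene of a comparison, and calls needed an adjusted p under 0.05. The procedure was tested on simulated data. Alternatives were an untrended or robust prior variance, removal of the dimmest 33.3% of genes, quantile normalization, array medians set equal, array weights, a replicate block, models of 2 groups, addition of 16 before log2, and omission of each array.

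The 10 genes and the lists were chosen with earlier results of these data known. All 10 were named, with the 2 genes nearest to EGR1 in centred log2 level. Planned lists of AP-1 partners, other immediate early genes, their activators, EGR corepressors and cell markers need symbols that the files do not pair with IDs, so they were not analysed here. Promoter windows were matched by symbol for 9 of the 10 genes, and EGR3 was not used there.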

Additional observations from a re-analysis of the deposited data

Results flagged for a closer look

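The withdrawal response of EGR1 is listed because its difference between the lines was called by limma, a call not used here as a test of EGR1. That call held in 5 of 20 alternatives and in 0 of the 12 fits with 1 array left out. The K89E change minus the empty vector change was -0.34 on the log2 scale, and -0.37 to -0.30 over the 20 alternatives. This value contains the change for which EGR1 was picked, so it is a description and no evidence of a smaller response in K89E cells.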

How the results depend on the processing

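Of 739 recomputed changes of the 9 genes other than EGR1 in the tested comparisons, 680 kept direction and side of the threshold, 15 gained a call, 2 lost one and 42 changed sign. FOS on withdrawal in K89E cells kept its call under all 21 alternatives. Not every alternative could change a direction. Another prior variance, fewer genes, a replicate block, models of 2 groups and omission of an array outside the comparison leave the estimate itself fixed. The cause of the changes below was not tested, except that fits without an array hold fewer samples. Of these 9 genes, 1 was called for withdrawal in K89E cells, 1 for K89E against empty vector after withdrawal, 0 with GM-CSF and 0 for the difference of responses. With 1 array left out these numbers were 1 to 3, 1 to 2, 0 to 1 and 0 in each fit. For withdrawal in K89E cells 2 were called with quantile normalization. For K89E after withdrawal 2 were called without the dimmest 33.3% of genes and 0 in a fit on 2 groups. With GM-CSF 1 was called without the dimmest 33.3% of genes, with quantile normalization, array weights or a fit on 2 groups. The EGR1 change in empty vector cells was 2.03 to 2.11 over the alternatives.

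Equal replicate numbers did not clearly pair the arrays. Deviations of same-numbered arrays from their group means correlated at -0.201 to 0.233 and those of others at -0.210 to 0.200, and an array's own number was its best match in 16 of 36 comparisons, where chance gives 12. With the replicate block, 1 of the 9 genes, JUND, was called for K89E with GM-CSF (limma adjusted p = 0.021), and no other number of calls moved.

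Changes of sign occurred only where neither value was called. For withdrawal in K89E cells EGR2 gave -0.032 with quantile normalization, and with centring on array medians EGR2 gave -0.00038 and IER2 -0.0018. For K89E after withdrawal EGR2 gave -0.063 with array weights. With GM-CSF, FOS gave -0.0014 with quantile normalization and -0.0031 with centring, and ATF3 gave -0.0052 with quantile normalization and -0.016 with array weights. For the difference of responses EGR2 gave -0.0032 with quantile normalization and -0.075 with array weights. With 1 array left out, uncalled values that changed sign ranged as follows. For withdrawal in K89E cells this was IER2 from -0.0064 to 0.043 and EGR2 from -0.030 to 0.043. For K89E against empty vector after withdrawal this was EGR2 from -0.051 to 0.088 and FOS from -0.12 to 0.0042. For K89E against empty vector with GM-CSF this was EGR2 from -0.0037 to 0.038, FOS from -0.038 to 0.050, JUN from -0.036 to 0.089, ATF3 from -0.042 to 0.077, FOSB from -0.031 to 0.12 and JUNB from -0.11 to 0.0084. For the difference of responses this was EGR2 from -0.066 to 0.073, JUNB from -0.027 to 0.090, FOS from -0.12 to 0.0022, JUND from -0.0081 to 0.095, IER2 from -0.052 to 0.011, FOSB from -0.13 to 0.016 and ATF3 from -0.00079 to 0.12.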
